A study of Mus musculus with 12 samples.

Results

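Cells of the murine leukemia line ML23 that carried the receptor cKit on their surface, the sub-population P11, were compared with cells that lacked it, the sub-population P12. The gates were CD9- cKit+ Mac1- CD48+ for P11 and CD9- cKit- Mac1- CD48+ for P12, so that by the gates the cells differed in cKit alone. Each sub-population had 3 RNA-seq libraries, which are 6 of the 12 libraries of the series, and the members of the comparison were the 12556 of 20202 genes in the table that reached 1 CPM (counts scaled to the size of the library) in at least 3 of these 6 libraries. ML23 was made from cells of rtTA transgenic mice (Jax strain 6965), transformed with lentiviruses that over-express *Meis1*, *HoxA9* and *HoxB5*. It carried the reporter ZsGreen and was passaged in C57BL/6 mice, and ZsGreen+ cells of diseased mice were sorted. ML23 is a single line, the age of the mice was not given in the sources used here, and each library was made from 100 sorted cells. The other sub-populations, P9 (CD9+ cKit+ Mac1+ CD48-) and P10 (CD9- cKit+ Mac1+ CD48+), entered the fit to share its estimate of the spread.

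cKit is the receptor tyrosine kinase for stem cell factor. It is carried by hematopoietic stem and progenitor cells and by mast cells, and most other blood cells lose it as they mature. Ligand binding pairs the receptors, which phosphorylate each other and signal through the PI3K, MAPK and JAK-STAT pathways. In early granulocyte precursors the genes of the primary (azurophilic) granules are active while the cells still divide, whereas genes of monocytes and of later neutrophil stages come up as cKit is lost.

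The totals behind the libraries were not reported and were inferred from the spacing of the lowest CPM values. They were between 17764117 and 20106991 alignments in P11 and between 13441769 and 17769887 in P12. All but that of P12 replicate 1 were above the range of reads per sample that the study's text gives. By these totals 1 CPM stood for at least 13.4 alignments, which after amplification of cDNA are not counts of molecules. The source label calls the cells hematopoietic stem cells. The stem cell markers *Procr*, *Ly6a* and *Hlf* summed to 1.13 to 1.5 CPM in P11 and 0.224 to 1.28 CPM in P12, and 1 of the 3 reached 1 CPM in any of the 6 libraries. By that rule 8 of 8 markers of myeloid leukemic progenitors were present, but also 7 of 7 of neutrophils and 7 of 8 of monocytes and macrophages. The progenitor markers included *Kit*, a sort gene, and *Meis1* and *Hoxa9*, factors that made the line. Their presence therefore does not name the cell type. Markers of megakaryocytes summed to at most 1.64 CPM and those of stromal and endothelial cells to at most 5.91 CPM in any of the 6 libraries. Other lineages were higher, with neutrophil markers at 224 to 422 CPM and erythroid markers at 45.1 to 59.6 CPM in P11 and 62.1 to 64.6 CPM in P12. Dendritic cell markers summed to 14.1 to 21.1 CPM, B cell markers to 13.0 to 19.2 CPM, and basophil, mast cell and eosinophil markers to 9.67 to 16.2 CPM. T and NK cell markers summed to at most 0.619 CPM, except in P11 replicate 3, with 10.4 CPM. Fewer cells of one kind and less RNA per cell cannot be told apart in such bulk libraries.

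P12 replicate 3 stood apart from the other P12 libraries. Over 3831 genes with a log2 value of at least 6 in any of the 6 libraries, its root mean square log2 difference per gene to the P10 libraries was 0.523 ± 0.00975 (SD, 3 library pairs), against 0.797 ± 0.0119 (6 pairs) for P12 replicates 1 and 2. It lay more than 1 log2 unit above the 5 other libraries of P11 and P12 in 130 of 9444 genes and below all 5 in 57. In P12 replicate 1 these counts were 39 and 58, and in P11 replicate 3 they were 48 and 18, while the other libraries had 10 or fewer on either side. The summed level of 8 monocyte and macrophage markers was 541 to 656 CPM in P11, 760 and 792 CPM in P12 replicates 1 and 2, 1425 CPM in P12 replicate 3 and 1888 to 1933 CPM in P10, the Mac1+ neighbour. The part of Mac1+ cells in P12 replicate 3 was not tested. A log2 difference or list median is given without this library as well where leaving it out moved the value by more than 1.5 times.

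*Fn1*, *Tgfbi* and *Msr1* were among the genes furthest out on the high side in P12 replicate 3 (a description, chosen for that library). *Fn1*, the gene of fibronectin, was at 94.6, 59.3 and 541 CPM in P12 replicates 1 to 3, at 81.6, 81.1 and 120 CPM in P11 and at 2452, 2507 and 1656 CPM in P10. *Tgfbi*, an extracellular matrix protein gene of macrophages, was at 43.3, 32.9 and 207 CPM in P12 and at 36.3 to 47.0 CPM in P11. *Msr1*, a macrophage scavenger receptor gene, was at 2.23, 2.36 and 29.6 CPM in P12 and at 3.81, 3.60 and 6.02 CPM in P11. In each of these genes P12 replicate 3 lay between the other P12 libraries and P10. P11 overlapped with P12 replicates 1 and 2 in *Fn1* and *Tgfbi* and lay above them in *Msr1*. In *Fos*, chosen by the same rule, P12 replicate 3 (37.3 CPM) lay above P10 replicates 1 and 2 (23.9 and 24.5 CPM). On the low side, *Prss57*, a serine protease gene of primary granules, was at 16.5, 11.6 and 2.77 CPM in P12 and at 8.39, 7.83 and 20.9 CPM in P10. *Igf1r*, the receptor of insulin-like growth factor 1, was at 434, 359 and 18.4 CPM in P12 and at 709, 681 and 77.3 CPM in P10. Here P12 replicate 3 lay below every P10 library. *Igf1r* was also low in P11 replicate 3, with 99.2 CPM against 436 and 425 CPM in the other P11 libraries.

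**Figure D1:**
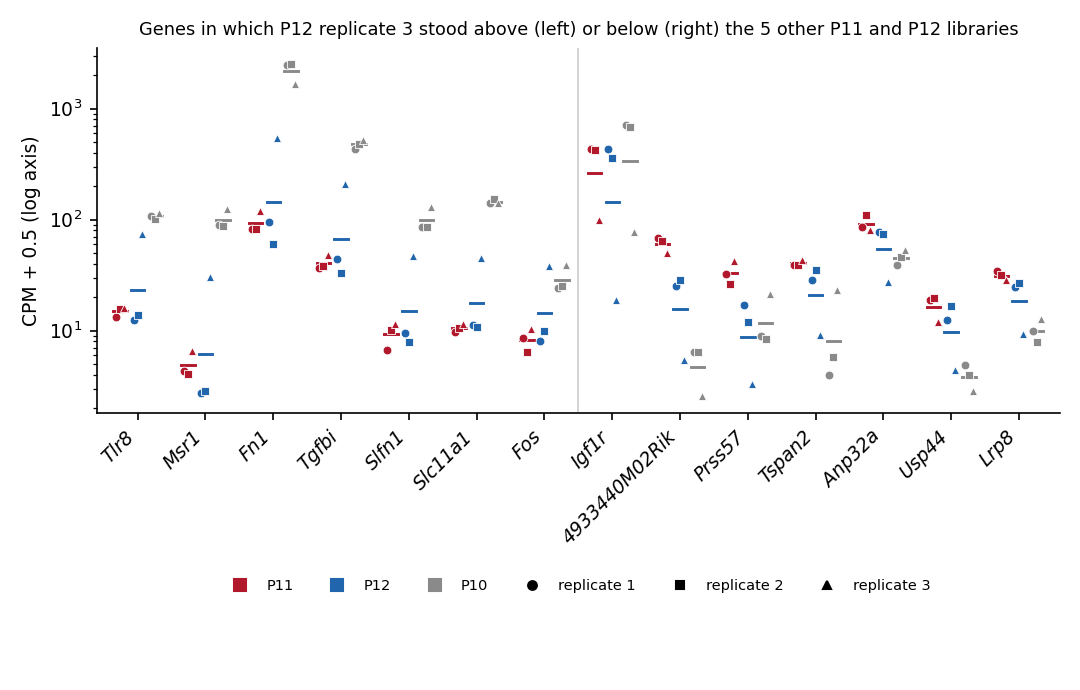
Level of 14 genes chosen because P12 replicate 3 stood above (left) or below (right) the 5 other P11 and P12 libraries, as CPM + 0.5 on a log axis. Points are single libraries of P11 (red), P12 (blue) and P10 (grey), and bars are means of the log2 values; for Fn1, P12 replicate 3 (541 CPM) lies between the other P12 libraries (94.6 and 59.3 CPM) and P10 (1656 to 2507 CPM).

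*Kit*, the gene of the receptor used in the sort, showed the gap that the gates were set for. It lies on chromosome 5 from 75574916 to 75656722 of mm10, on the plus strand, with 21 exon blocks over 8 annotated transcripts. Its level was 54.8, 45.3 and 89.5 CPM in the P11 libraries and 5.73, 4.45 and 5.38 CPM in the P12 libraries. The lowest P11 library was far above the highest P12 library, and P12 replicate 3 did not stand apart here. The mean was 63.2 ± 23.2 CPM in P11 and 5.19 ± 0.664 CPM in P12 (SD, n = 3 each), which is 12.2-fold, and the log2 difference was 3.43 (standard error 0.34, adjusted p = 0.0018 from limma with Benjamini-Hochberg adjustment). Without P12 replicate 3 it was 3.46. Because the sort used cKit protein, this difference is a check of the labels. *Kit* was at 67.0, 50.3 and 46.4 CPM in P9 and at 8.44, 8.07 and 21.5 CPM in P10, which were both gated cKit+. In P10 the RNA level thus lay well below P11 despite the cKit+ gate.

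Among all 12556 genes, *Kit*, *Gm11505* and *Afap1* passed an adjusted p of 0.1 with more than a 2-fold difference (0.0239% of the genes tested), and all 3 were higher in P11 (0.0239%). No gene was called lower in P11 (0.0%). These calls come from the fit without a replicate block. With the replicate number as a block, 121 genes were called, 99 higher and 22 lower. At an unadjusted p under 0.05 limma without the block counted 1293 genes higher and 518 lower in P11, and no other tool was run. Fitted differences were small for most genes, since 325 exceeded 1 log2 unit in either direction, 28 exceeded 2 and 2 exceeded 3. A looser view is the count of genes in which the 3 libraries of one sub-population all lay above the 3 of the other. P11 was above in 2230 genes (17.8%) and below in 711 (5.66%), together 2941 (23.4%). After rescaling each library by its median ratio, P11 was above in 1781 and below in 1018 genes. The median log2 difference of all genes was 0.10, and 0.05 after rescaling. Without P12 replicate 3, a comparison of 3 with 2 libraries in which fewer libraries need to separate, the counts were 3058 above (24.4%) and 1173 below (9.34%). An exact permutation test of a single gene cannot go below p = 0.1 (two-sided) with 3 libraries against 3.

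The call of *Kit* held with each of the 12 libraries left out in turn, whereas the calls of the other genes did not. The count fell to *Kit* alone (1 gene) in 7 of the 12 cases, in which the library left out was replicate 1 of any sub-population, replicate 2 of P9 or P10, or replicate 3 of P11. The count was 5 without P11 replicate 2, 6 without P12 replicate 3, 34 without P10 replicate 3, 45 without P9 replicate 3 and 112 without P12 replicate 2. *Afap1* was not among the 6 genes called without P12 replicate 3 (adjusted p = 0.15).

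**Figure D2:**
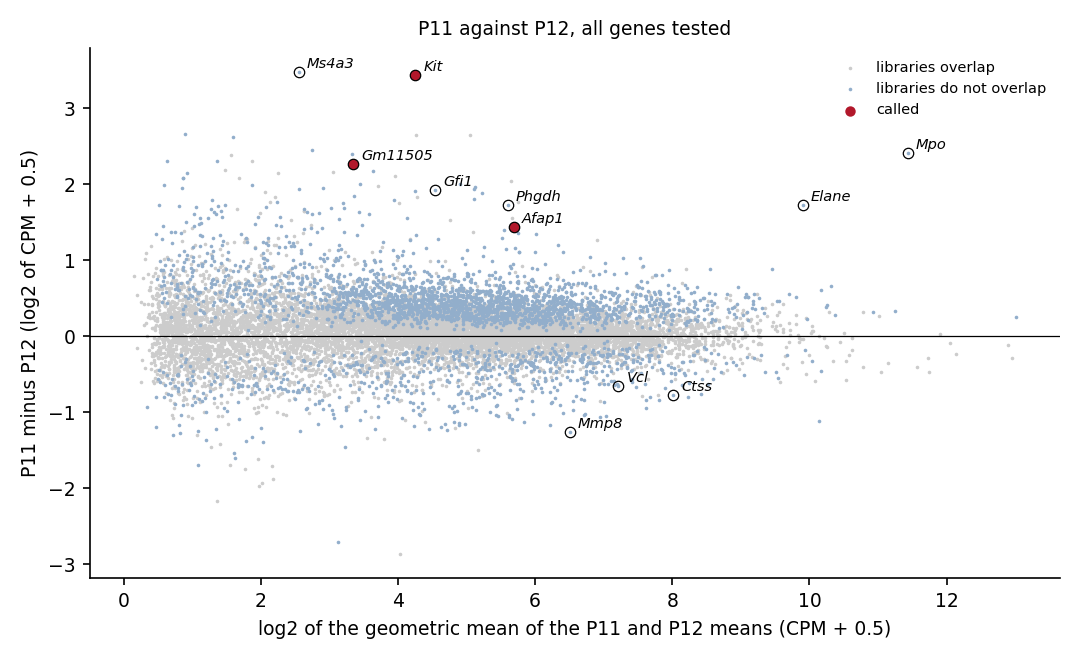
Log2 difference between P11 and P12 against the geometric mean of the P11 and P12 means for 12556 genes, on the log2(CPM + 0.5) scale. The 3 called genes are filled in red, and blue points are genes whose P11 and P12 libraries do not overlap (2230 above and 711 below). Open circles mark the named genes, of which those not filled in red did not pass the test.

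*Gm11505*, a gene annotated as antisense RNA, lies on chromosome 11 from 87795784 to 87801144, within *Mpo* and on its opposite strand. Its level was 22.2, 15.7 and 25.9 CPM in P11 and 5.07, 5.69 and 2.02 CPM in P12. The groups were well apart, and P12 replicate 3 was the lowest library. The log2 difference was 2.27 (standard error 0.34, adjusted p = 0.081), and 1.86 without P12 replicate 3. Of its 737 exon bases, 512 (69.5%) overlap exons of *Mpo*. Whether the authors assigned reads by strand is not settled by the sources, which name both a directional kit and a SMART-Seq kit, and without strand the reads of both genes cannot be told apart. *Gm11505* amounted to 0.174% to 0.567% of the *Mpo* level over all 12 libraries.

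*Mpo*, the gene of myeloperoxidase, the peroxidase that makes hypochlorous acid in primary granules, lies on chromosome 11 from 87793581 to 87804413. It was at 5150, 4608 and 9084 CPM in P11 and at 1807, 1140 and 696 CPM in P12, so that the lowest P11 library was above the highest P12 library. The log2 difference was 2.41 (standard error 0.47) and did not pass (adjusted p = 0.12), and it was 2.06 without P12 replicate 3. In the limma fit with the replicate number as a block, *Mpo* had an adjusted p of 0.038.

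*Afap1* encodes an adaptor that binds actin filaments and Src kinase, and lies on chromosome 5 from 35893319 to 36003923 with 19 exon blocks over 5 annotated transcripts. The P11 libraries held 77.0, 65.0 and 113 CPM, and the P12 libraries 36.2, 30.9 and 24.6 CPM. All P11 libraries were above all P12 libraries. The log2 difference was 1.44 (standard error 0.22, adjusted p = 0.081), and 1.29 without P12 replicate 3. *Acox3*, an upstream neighbour that encodes a peroxisomal oxidase, had a log2 difference of -0.24 (adjusted p = 0.64). Beside *Kit*, *Gm43102* (an annotated transcript without a known role, 81160 bases past its end) was at 2.93, 3.32 and 3.38 CPM in P11 and at 0.818, 0.675 and 0.463 CPM in P12, a log2 difference of 1.70 that did not pass (adjusted p = 0.12).

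**Figure D3:**
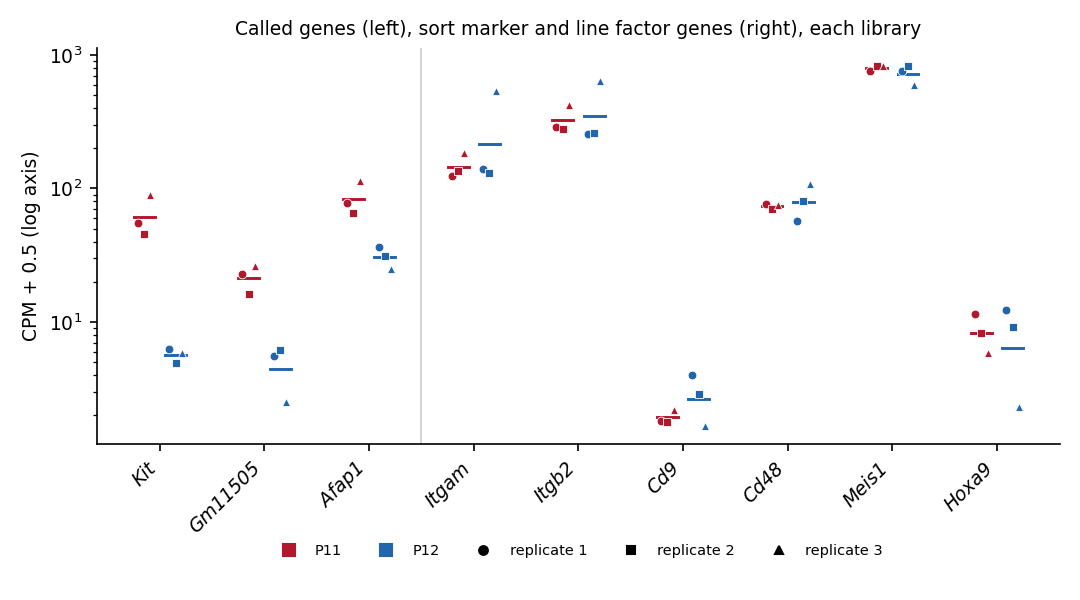
Level of the 3 called genes (left of the line) and of the sort marker and line factor genes (right) in each library, as CPM + 0.5 on a log axis. Points are libraries of P11 (red) and P12 (blue) and bars are means of the log2 values; Kit, Gm11505 and Afap1 separate the groups, whereas Itgam, Itgb2, Cd9, Cd48, Meis1 and Hoxa9 overlap.

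The start regions of *Kit* and *Afap1* are shown because these are the protein-coding genes called in the fit without a replicate block. They are the bases before the gene start from the RefSeq promoter table (GRCm38.p6), chr5:75574737-75574915 on the plus strand for *Kit* (179 bases) and chr5:35893069-35893318 on the plus strand for *Afap1* (250 bases), printed 5′ to 3′. Capitals mark the motif GAGGAA of the myeloid factor PU.1, read on either strand.
Kit: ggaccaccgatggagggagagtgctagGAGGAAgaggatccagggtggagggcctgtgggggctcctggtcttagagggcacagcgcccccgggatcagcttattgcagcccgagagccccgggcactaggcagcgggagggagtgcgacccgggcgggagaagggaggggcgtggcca
Afap1: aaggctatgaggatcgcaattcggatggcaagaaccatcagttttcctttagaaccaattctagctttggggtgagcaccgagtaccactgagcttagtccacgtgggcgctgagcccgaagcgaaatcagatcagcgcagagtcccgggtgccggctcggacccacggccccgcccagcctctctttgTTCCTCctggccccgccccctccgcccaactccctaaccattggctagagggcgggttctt

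The motif began 152 bases before the gene start in *Kit* and 61 bases before it in *Afap1*, on the minus strand in the latter. Of 32817 promoters, 17.1% held it within 179 bases and 23.3% within 250 bases. The motifs AGATAA of GATA factors, TGTGGT of Runx factors and TTNNGNAA of C/EBP factors (both strands, N for any base) matched neither window. The Myb motif AACNG matched once in *Afap1*, as in 74.2% of promoters at that length.

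The genes of the markers that both gates shared had levels that overlapped between P11 and P12. *Itgam*, which encodes the alpha chain of Mac1, was at 124, 134 and 183 CPM in P11 and at 139, 130 and 538 CPM in P12. Only P12 replicate 3 stood high, and the log2 difference was -0.56 with all libraries (adjusted p = 0.55) and 0.11 without it. *Itgb2*, the beta chain, was at 289, 280 and 422 CPM in P11 and at 257, 258 and 642 CPM in P12, with differences of -0.11 and 0.33. *Cd48*, a SLAM family receptor gene, was at 75.7, 69.6 and 74.3 CPM in P11 and at 56.5, 80.4 and 108 CPM in P12 (-0.11, adjusted p = 0.84, and 0.12 without P12 replicate 3). *Cd9*, a tetraspanin gene, was at 1.29 to 1.69 CPM in P11 and 1.16 to 3.50 CPM in P12. Of the 5 sort marker genes, *Kit* alone was called.

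Of the factors that made the line, *Meis1* and *Hoxa9* overlapped between the gates as well, and *HoxB5* was not analysed here. *Meis1*, a homeobox cofactor, was at 756, 819 and 820 CPM in P11 and at 764, 830 and 591 CPM in P12 (log2 difference 0.15, adjusted p = 0.85, and 0.0033 without P12 replicate 3). *Hoxa9* was at 10.9, 7.77 and 5.37 CPM in P11 and at 11.8, 8.72 and 1.79 CPM in P12 (0.37, and -0.37 without P12 replicate 3). In *Hoxa9* replicate 3 was the lowest library of both sub-populations.

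Genes that act downstream of cKit did not pass the test. Of 46 genes of Kit signalling that were tested (of 53 listed), none was called, P11 was above P12 in all libraries for 2 (17.8% over all genes) and below for 6 (5.66% over all genes). Without P12 replicate 3 it was above for 7 and below for 7 (24.4% and 9.34% over all genes). The median log2 difference was -0.04 (0.04 without P12 replicate 3), beside 0.10 over all genes. *Ptpn6*, the phosphatase SHP-1 that damps cKit signals, was at 210, 223 and 213 CPM in P11 and at 287, 257 and 295 CPM in P12 (log2 difference -0.37, adjusted p = 0.21). *Rasgrp4*, a Ras activator of mast cells and myeloid cells, was at 20.8, 24.3 and 23.4 CPM in P11 against 36.1, 26.9 and 93.9 CPM in P12 (-0.97, adjusted p = 0.22, and -0.44 without P12 replicate 3). Both genes were lower in every P11 library, and P12 replicate 3 was the highest library for both.

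Among 17 transcription factors known to act on *Kit* that were tested, 4 were higher in every P11 library and 1 lower, near the 17.8% and 5.66% of all genes. After rescaling 2 were higher, beside 1781 of all 12556 genes. *Myb*, which keeps progenitors dividing, was at 579, 623 and 749 CPM in P11 and at 466, 492 and 375 CPM in P12 (log2 difference 0.55, adjusted p = 0.18). *Runx1*, a core factor of blood formation, was at 169, 166 and 169 CPM in P11 and at 251, 186 and 194 CPM in P12 (-0.31, adjusted p = 0.42, and -0.17 without P12 replicate 1). Both genes separated the groups, in opposite directions. *Ets1* was at 8.39, 6.30 and 33.5 CPM in P11 and at 2.83, 3.77 and 3.82 CPM in P12 (1.69, adjusted p = 0.24, and 0.98 without P11 replicate 3). In P10 replicate 3 was also the highest library for *Ets1*, at 58.8 CPM against 11.1 and 11.9 CPM.

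Most other growth factor receptors overlapped or stood lower in P11. Of 17 tested, *Kit* (the sort gene) and *Ifngr1* were higher in every P11 library (17.8% over all genes) and 5 were lower (5.66%). The counts were 4 and 5 without P12 replicate 3 (24.4% and 9.34% over all genes). *Ifngr1*, the interferon gamma receptor chain, was at 415, 410 and 433 CPM in P11 and at 313, 321 and 259 CPM in P12 (log2 difference 0.50, adjusted p = 0.14). *Csf1r*, the receptor of the macrophage growth factor, was at 328, 286 and 256 CPM in P11 and at 353, 367 and 680 CPM in P12 (-0.63, adjusted p = 0.22, and -0.32 without P12 replicate 3). *Il6st*, the shared signal chain of the interleukin 6 family, was at 221, 213 and 135 CPM in P11 and at 282, 321 and 288 CPM in P12 (-0.68, adjusted p = 0.20, and -0.45 without P11 replicate 3). The receptors lower in P11 were thus separated by library, but none passed the test.

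Over all 12 libraries, the genes whose log2 levels followed *Kit* most closely among 8850 compared were *Sipa1l1* (Pearson 0.95, Spearman 0.89), *Def6* (0.93 and 0.94), *Chst13* (0.92 and 0.92), *Gadd45b* (0.91 and 0.88) and *Gfi1* (0.91 and 0.77). These are descriptions over 4 sub-populations of 3 libraries each, which share gates. *Sipa1l1*, a GTPase-activating protein gene for Rap, was at 65.4, 65.2 and 131 CPM in P11 and at 26.7, 30.2 and 39.9 CPM in P12 (log2 difference 1.36, adjusted p = 0.12).

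Genes listed for the primary granules, which are made at the promyelocyte stage, stood higher in P11 almost without exception. The list is mixed, since members such as *Ms4a3* and *Clec5a* do not encode granule contents. *Mpo*, *Elane*, *Prtn3*, *Ctsg* and *Prss57*, which encode granule proteins, were each higher in every P11 library. All 12 listed were tested, and none was called in the fit without a replicate block. With the replicate number as a block 4 were called, and 5 with the block and the 6 libraries alone. In all, 11 were higher in every P11 library (17.8% over all genes), also without P12 replicate 3 and after rescaling. The median log2 difference was 0.88 with all libraries, 0.81 without P12 replicate 3 and 0.70 without P11 replicate 3. *Elane*, the gene of neutrophil elastase, was at 1330, 1256 and 2817 CPM in P11 and at 511, 449 and 564 CPM in P12 (1.73, adjusted p = 0.13). *Ms4a3*, a marker of granulocyte and monocyte progenitors, was at 7.35, 5.85 and 62.9 CPM in P11 and at 0.818, 0.619 and 1.04 CPM in P12 (3.48, adjusted p = 0.13). *Prss57* was at 31.7, 25.6 and 42.2 CPM in P11 and at 16.5, 11.6 and 2.77 CPM in P12 (1.91, adjusted p = 0.17, and 1.20 without P12 replicate 3). P11 replicate 3 was the highest library for all 3, most of all for *Ms4a3*, and no P11 library overlapped with P12. Replicate 3 was also the highest library of P9 and of P10 for all 3, with *Ms4a3* at 6.08, 5.63 and 43.5 CPM in P10. The exception among the 12 was *Clec5a*, a myeloid lectin receptor gene, at 33.0 to 64.2 CPM in P11 and 32.1 to 95.5 CPM in P12.

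**Figure D4:**
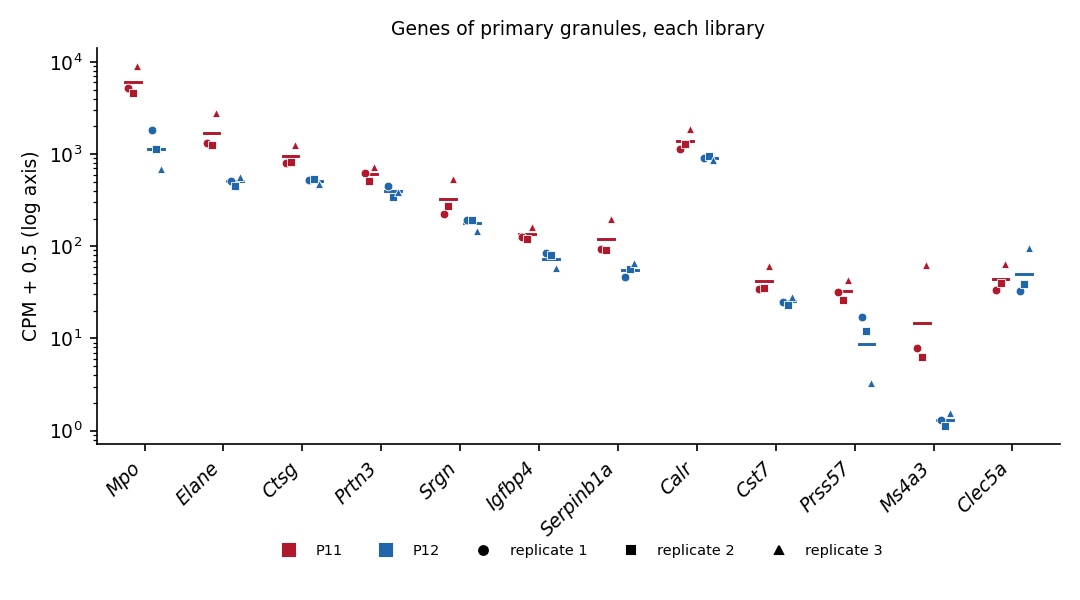
Level of the 12 genes of the primary granule list in each library, as CPM + 0.5 on a log axis. Points are libraries of P11 (red) and P12 (blue) and bars are means of the log2 values; 11 genes are higher in every P11 library, Clec5a overlaps, and P11 replicate 3 (triangles) is the highest P11 library.

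Of 26 myeloid transcription factors tested, 2 regulators of granulocyte formation were higher in every P11 library (17.8% over all genes) and 5 factors were lower (5.66%). The counts were 8 and 5 without P12 replicate 3 (24.4% and 9.34% over all genes). *Gfi1*, a repressor needed for neutrophil formation, was at 31.8, 30.3 and 76.4 CPM in P11 and at 7.59, 10.9 and 14.6 CPM in P12 (log2 difference 1.93, adjusted p = 0.14). *Cebpe*, a factor of late granule genes, was at 8.01, 6.76 and 32.3 CPM in P11 and at 1.79, 2.36 and 4.80 CPM in P12 (1.96, adjusted p = 0.21, and 1.27 without P11 replicate 3). In both genes P11 replicate 3 stood well above the other P11 libraries, and the groups did not overlap. Replicate 3 also stood high in P10, with *Gfi1* at 10.4, 12.4 and 44.8 CPM and *Cebpe* at 6.41, 7.23 and 41.4 CPM. Of 24 genes of later neutrophil maturation tested, 2 were higher and 3 lower in every P11 library (17.8% and 5.66% over all genes), and 9 and 6 without P12 replicate 3 (24.4% and 9.34%). *Mmp8*, a collagenase gene of later granules, was at 61.3, 70.5 and 41.6 CPM in P11 and at 129, 106 and 186 CPM in P12 (-1.27, adjusted p = 0.12). *Fpr2*, a formyl peptide receptor gene, was at 1.55, 1.69 and 2.24 CPM in P11 and at 4.54, 2.81 and 12.8 CPM in P12 (-1.39, adjusted p = 0.15, and -0.83 without P12 replicate 3).

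Genes of DNA replication and of growth were higher in P11 by small steps. Of 43 DNA replication genes, 32 were higher in every P11 library (17.8% over all genes) and none lower (5.66%), with a median log2 difference of 0.45 (0.35 without P12 replicate 3). None was called, and 14 had an unadjusted p under 0.05. *Pole*, the catalytic subunit of DNA polymerase epsilon, was at 159, 141 and 134 CPM in P11 and at 97.8, 107 and 76.7 CPM in P12 (0.63, adjusted p = 0.17). *Cdc45*, part of the replicative helicase, was at 64.3, 67.2 and 74.4 CPM in P11 and at 40.7, 50.5 and 51.1 CPM in P12 (0.53, adjusted p = 0.21). For both the groups did not overlap. Of 37 mitosis genes, 19 were higher in every P11 library (17.8% over all genes) and none lower, with a median of 0.32. *Aurkb*, a mitotic kinase gene, was at 102, 80.7 and 85.8 CPM in P11 and at 68.0, 62.2 and 63.8 CPM in P12 (0.46, adjusted p = 0.32).

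Ribosome biogenesis showed the same pattern. Of 50 genes tested, 37 were higher in every P11 library (17.8% over all genes), none was lower or called, and the median log2 difference was 0.47 (0.35 without P12 replicate 3). *Mybbp1a*, a nucleolar protein gene, was at 242, 220 and 217 CPM in P11 and at 157, 174 and 109 CPM in P12 (0.65, adjusted p = 0.14). *Rrs1*, an assembly factor of the large ribosomal subunit, was at 46.0, 39.6 and 41.2 CPM in P11 and at 23.95, 28.0 and 19.9 CPM in P12 (0.82, adjusted p = 0.18). P12 replicate 3 was the lowest library for both, and replicates 1 and 2 of P12 were also below every P11 library. *Myc*, a driver of ribosome formation, was at 148, 152 and 179 CPM in P11 and at 122, 89.5 and 66.5 CPM in P12 (0.82, adjusted p = 0.14). Of 20 tRNA synthetase genes, 11 were higher in every P11 library (17.8% over all genes) and none lower, with a median of 0.33. After rescaling, the counts were 28 for DNA replication, 31 for ribosome biogenesis, 18 for mitosis and 7 for tRNA synthetases, beside 1781 of all 12556 genes.

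Enzymes that make serine, one-carbon units and methionine were higher as well. Of 18 tested (of 22 listed), 14 were higher in every P11 library (17.8% over all genes) and none lower, with a median log2 difference of 0.53 (0.41 without P12 replicate 3). *Phgdh*, the first enzyme of serine synthesis, was at 102, 75.6 and 74.1 CPM in P11 and at 32.6, 37.1 and 12.5 CPM in P12 (1.72, adjusted p = 0.15, and 1.24 without P12 replicate 3). *Shmt2*, the mitochondrial enzyme that takes a one-carbon unit from serine, was at 148, 123 and 128 CPM in P11 and at 104, 85.8 and 63.4 CPM in P12 (0.68, adjusted p = 0.13). *Gart*, an enzyme of purine synthesis, was at 144, 121 and 126 CPM in P11 and at 85.5, 90.5 and 65.1 CPM in P12 (0.70, adjusted p = 0.13). In each of them the groups did not overlap and P12 replicate 3 was lowest. *Asns*, the asparagine synthetase gene, was at 14.2, 10.8 and 18.4 CPM in P11 and at 6.10, 5.96 and 3.76 CPM in P12 (1.37, adjusted p = 0.16). *Tfrc*, the transferrin receptor that takes up iron, was at 79.3, 67.4 and 67.8 CPM in P11 and at 30.1, 45.4 and 14.0 CPM in P12 (1.39, adjusted p = 0.15). Of 21 glycolysis genes, 8 were higher in every P11 library and 1 lower (17.8% and 5.66% over all genes). Without P12 replicate 3 these counts were 13 and 1 (24.4% and 9.34% over all genes). Of 29 genes of the respiratory chain 6 were higher, near the 17.8% of all genes.

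**Figure D5:**
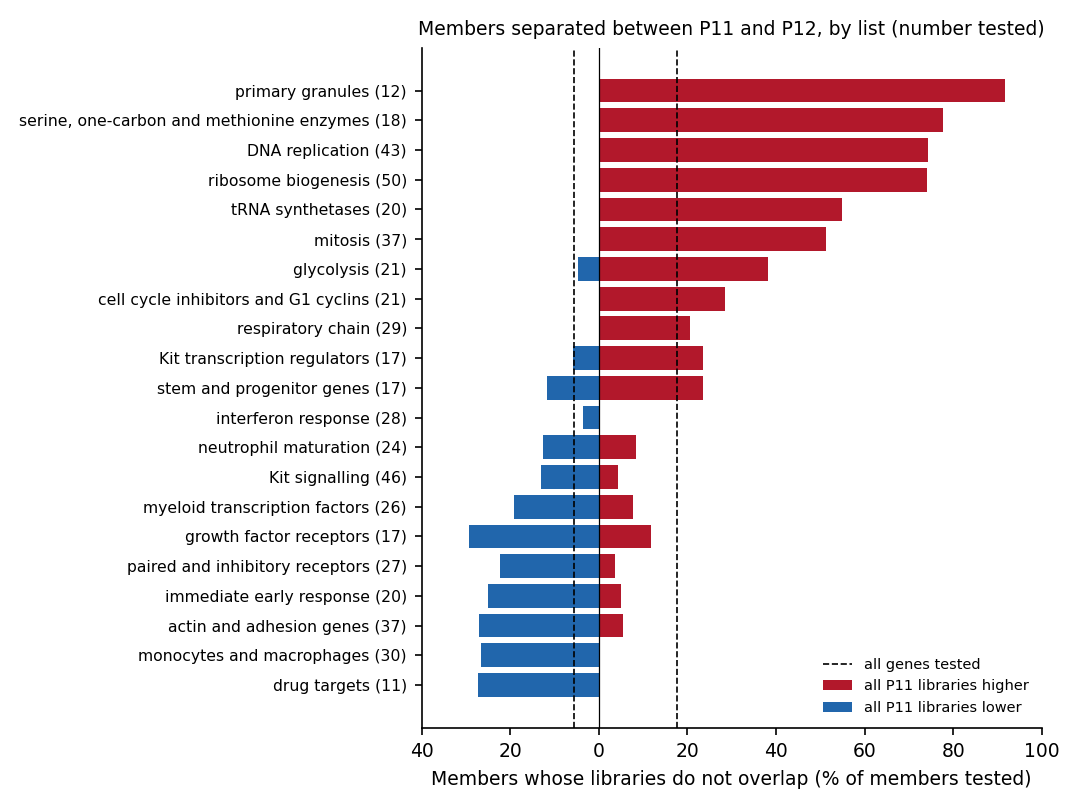
Share of the tested members of each gene list with at least 10 tested members whose 3 P11 libraries all lay above (red, right) or below (blue, left) the 3 P12 libraries. Dashed lines give the shares over all 12556 genes (17.8% above and 5.66% below); primary granules reach 11 of 12, whereas drug targets, interferon response and monocyte and macrophage genes have none above.

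Genes of monocytes and macrophages stood lower in P11. Of 30 tested (of 34 listed), 8 were lower in every P11 library (5.66% over all genes), none was higher and none called. The median log2 difference was -0.40 with all libraries and -0.05 without P12 replicate 3, and without that library 5 members were higher and 8 lower (24.4% and 9.34% over all genes). *Ctss*, the lysosomal protease cathepsin S, was at 194, 210 and 180 CPM in P11 and at 296, 302 and 413 CPM in P12 (-0.77, adjusted p = 0.11, and -0.62 without P12 replicate 3). *Cx3cr1*, the fractalkine receptor gene of monocytes, was at 89.7, 80.05 and 74.4 CPM in P11 and at 124, 119 and 156 CPM in P12 (-0.70, adjusted p = 0.13). *Ccr2*, a chemokine receptor gene of inflammatory monocytes, was at 163, 165 and 125 CPM in P11 and at 202, 229 and 389 CPM in P12 (-0.81, adjusted p = 0.16, and -0.52 without P12 replicate 3). For all 3 P12 replicate 3 was highest, and P12 replicates 1 and 2 also lay above every P11 library.

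Receptors of the paired immunoglobulin-like families, which balance activating and inhibitory signals in myeloid cells, were lower in P11 in 6 of 27 genes (5.66% over all genes) and higher in 1 (17.8%). Without P12 replicate 3 the counts were 7 lower and 7 higher (9.34% and 24.4% over all genes). Their median log2 difference was -0.23, and -0.02 without P12 replicate 3. *Pirb*, an inhibitory receptor gene, was at 85.3, 96.6 and 64.0 CPM in P11 and at 148, 111 and 294 CPM in P12 (-1.06, adjusted p = 0.17, and -0.66 without P12 replicate 3). *Pira2*, an activating one, was at 49.9, 58.9 and 36.4 CPM in P11 and at 95.9, 80.9 and 160 CPM in P12 (-1.17, adjusted p = 0.13). The Pira and Pirb genes are near-identical copies, between which the authors' counting could split reads, so the level of each is uncertain.

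Immediate early genes, which respond within minutes to growth factors or handling, were lower in every P11 library in 5 of 20 (5.66% over all genes) and higher in 1 (17.8%), with a median log2 difference of -0.32 (-0.15 without P12 replicate 3). *Zfp36*, a gene of an mRNA-destabilising protein, was at 40.3, 37.5 and 33.4 CPM in P11 and at 79.8, 48.5 and 97.6 CPM in P12 (-0.96, adjusted p = 0.13). *Klf4*, a zinc finger factor that drives monocyte formation, was at 36.7, 37.9 and 34.1 CPM in P11 and at 71.0, 49.1 and 147 CPM in P12 (-1.13, adjusted p = 0.16, and -0.70 without P12 replicate 3). *Klf6* was at 64.6, 68.5 and 69.4 CPM in P11 and at 99.5, 97.1 and 187 CPM in P12 (-0.85, adjusted p = 0.13, and -0.54 without P12 replicate 3). The P11 libraries were close to each other in these genes, and the P12 libraries were spread.

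Of 37 actin and adhesion genes, 10 were lower in every P11 library (5.66% over all genes) and 2 higher (17.8%), 1 of which was *Afap1*. *Vcl*, the gene of vinculin, which ties integrins to actin, was at 129, 122 and 103 CPM in P11 and at 176, 176 and 204 CPM in P12 (-0.65, adjusted p = 0.11). *Itgb7*, an integrin chain of cells that home to the gut, was at 108, 98.4 and 65.4 CPM in P11 and at 162, 152 and 253 CPM in P12 (-1.05, adjusted p = 0.14). *Msn*, the gene of moesin, which anchors actin to the membrane, was at 622, 632 and 597 CPM in P11 and at 810, 782 and 993 CPM in P12 (-0.47, adjusted p = 0.15). The groups were apart in all 3, and the median of the whole list was -0.11 (-0.06 without P12 replicate 3). Other protein-coding genes with the smallest p on the lower side were *Rin2*, *Sh3bp5*, *Myadm*, *Lsp1*, *S100a10*, *Nlrp3*, *Lpp* and *Fmnl1*, with log2 differences between -1.08 and -0.46 and adjusted p of 0.12 to 0.13. *S100a10*, a partner of annexin A2, was at 35.0, 40.8 and 25.3 CPM in P11 and at 71.0, 83.3 and 57.6 CPM in P12, so that here P12 replicate 3 was the lowest of its group.

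Higher in P11 by the same ranking were *Rapgef3*, *Mgat5*, *Trim45*, *Slc25a37*, *Ampd2*, *Rps6ka2*, *Glis3*, *Palm* and *Dctn1*, with log2 differences of 0.65 to 1.43 and an adjusted p of 0.11 each. *Rapgef3*, a cAMP-activated exchange factor for Rap, was at 9.94, 10.6 and 14.4 CPM in P11 and at 4.61, 4.39 and 3.07 CPM in P12. *Mgat5*, a glycosyltransferase gene that branches N-glycans, was at 510, 449 and 557 CPM in P11 and at 294, 324 and 211 CPM in P12. *Slc25a37*, the mitochondrial iron importer mitoferrin, was at 93.2, 83.0 and 117 CPM in P11 and at 60.01, 52.5 and 39.9 CPM in P12. The rule for these genes required that the groups not overlap. Without P12 replicate 3, *Rps6ka2*, a kinase gene of the MAPK pathway, passed with a difference of 1.36 (adjusted p = 0.068), from 65.3, 53.2 and 93.6 CPM in P11 and 26.0 and 27.2 CPM in P12.

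No member of the remaining lists was called. Of 17 stem and progenitor genes tested (of 30 listed), 4 were higher and 2 lower in every P11 library (17.8% and 5.66% over all genes). *Sox4*, a factor of immature cells, was at 9.49, 8.43 and 10.8 CPM in P11 and at 6.15, 3.9 and 0.647 CPM in P12 (1.64, adjusted p = 0.21, and 0.89 without P12 replicate 3). Of 28 interferon response genes, none was higher and 1 lower (3 and 1 without P12 replicate 3), and their median was -0.26 with all libraries but 0.19 without P12 replicate 3. *Mx1*, an antiviral GTPase gene, was at 10.7, 13.9 and 17.7 CPM in P11 and at 14.3, 15.3 and 54.7 CPM in P12 (-0.71, and -0.09 without P12 replicate 3). Of 11 genes of drug targets in leukemia, 3 were lower in every P11 library and none higher (5 and 1 without P12 replicate 3), with a median of -0.16 (-0.11 without it). Among the 3 was *Cd44*, a hyaluronan receptor gene, at 386, 370 and 412 CPM in P11 and at 482, 448 and 570 CPM in P12 (-0.36, adjusted p = 0.21). Of 7 basophil, mast cell and eosinophil genes tested, 3 were higher and none lower, with a median of 0.26 (0.39 without P12 replicate 3). Among the 3 was *Hdc*, the histamine-forming enzyme, at 2.43, 4.05 and 12.9 CPM in P11 and at 1.26, 1.63 and 1.68 CPM in P12 (1.48, adjusted p = 0.23, and 0.86 without P11 replicate 3). Of the lists not described above, cell cycle inhibitors and G1 cyclins had 6 of 21 genes higher and none lower, the integrated stress response 2 of 9 higher and 1 lower, erythroid genes 1 of 8 higher and 1 lower, and dendritic cell genes none of 9 higher and 1 lower (1 and 3 without P12 replicate 3). Beside each of these lists, 17.8% of all genes were higher and 5.66% lower. Without P12 replicate 3 these shares of all genes were 24.4% and 9.34%.

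P11 and P12 lay close together as whole profiles. Over the 3831 genes, library pairs of P11 and P12 differed by a root mean square log2 difference of 0.475 ± 0.11 per gene (SD, 9 pairs, between 0.273 and 0.608). Libraries within P11 differed by 0.294 ± 0.0682 (3 pairs) and those within P12 by 0.492 ± 0.0622 (3 pairs). The distance of P12 replicate 3 to P11 was 0.545 ± 0.0260 (3 pairs), and that of P12 replicates 1 and 2 was 0.440 ± 0.121 (6 pairs). The gap between the gates was therefore no larger than the spread among the P12 libraries on this measure.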

How the data were processed

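mRNA of ML23 cells was measured in 12 libraries of 4 sub-populations. Per the labels, the authors used STAR 2.5.3a to align 61-base single reads (mm10, Ensembl release 92) and the Partek E/M algorithm to quantify them. They deposited CPM with 0.0001 added, which was subtracted. CPM are not counts, and whole reads were not recovered from them, so no count test was run. The labels name 14 cycles of cDNA amplification.

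Values were transformed as log2(CPM + 0.5). limma 3.58.1 (R 4.3.3) was fitted to all 12 libraries with 1 mean per sub-population and an intensity trend, and p-values of P11 minus P12 were adjusted by Benjamini-Hochberg over the 12556 genes. Called genes passed an adjusted p of 0.1 and more than 2-fold. The script was tested on simulated data with known changes in P11. These data held neither a deviating library nor an effect shared by replicate number. The study's text names 3 diseased mice as the source of the sorted cells, but no source used here ties a replicate number to a mouse, so p-values measure the spread between libraries. Lists, members and alternatives were chosen with earlier results of these data known. Named genes were the sort markers and line factors, the called genes, in each direction the 12 protein-coding genes of smallest p (10 CPM or more, no overlap), up to 4 members per list by p, genes that P12 replicate 3 set apart, and those most correlated with *Kit*. *Clec5a*, *Gm43102* and *Acox3* were named after their values were seen. Gene ends in the table were 1 base past the annotation and were reduced by 1; 20062 symbols matched GENCODE M21. Promoters came from RefSeq (GRCm38.p6). Tables and plots were made with pandas 2.3.3 and matplotlib 3.10.9 (Python 3.11.15, numpy 2.4.6).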

Additional observations from a re-analysis of the deposited data

How the results depend on the processing

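By the inferred totals, depth did not limit the abundant genes, but genes of a few CPM rest on few alignments. The number of genes called depended on the processing. It was 3 as reported, 1 with a pseudocount of 0.1, without the filter, after rescaling by the median ratio, at an adjusted p of 0.05 or with the 6 libraries alone, 51 with a pseudocount of 2 (41 higher, 10 lower), 9 with array weights and 10 with protein-coding genes alone. With 1 library left out in turn it was 1 to 112, and a filter of 10 CPM gave 3. The cause was not tested. With the replicate number as a block the count was 121 (99 higher, 22 lower), and 184 with the 6 libraries alone (143 higher, 41 lower), among which were 4 and 5 genes of the primary granule list. Whether the numbers pair the libraries is not settled. In all 4 sub-populations replicate 3 lay more than 1 log2 unit below both other replicates in 5 genes, and as far above them in 5 others. Replicate 1 lay so in 1 gene and replicate 2 in 0. Deviations from the group means correlated at 0.09, 0.21 and 0.35 between same-numbered libraries. Between libraries of different numbers they correlated at -0.29, -0.25, -0.18, -0.17, 0.12 and 0.15, and P11 replicate 1 correlated more with P12 replicate 2 (0.12) than with P12 replicate 1. If the numbers mark mice, the fit without a block leaves a pairing out. Lists with at least 1 called gene numbered 3, and 7 with a pseudocount of 2, 9 and 15 with these replicate blocks, and 2 to 12 with 1 library left out. Genes whose libraries did not overlap numbered 3670 to 4911 with 1 library left out, where fewer libraries need to separate. The distance between P11 and P12 was 0.590 over all genes tested. Leaving out 1 library changed the sign of *Cd48* (-0.35 to 0.12), *Fn1* (-1.29 to 0.30), *Hoxa9* (-0.37 to 0.84), *Igf1r* (-0.58 to 1.68), *Itgam* (-0.92 to 0.11), *Itgb2* (-0.33 to 0.33), *Msr1* (-0.93 to 0.80) and *Tgfbi* (-1.23 to 0.087), in each case without P12 replicate 3 and for *Itgb2* also without P11 replicate 2, and *Msr1* was at 0.0065 with array weights. The other 67 of the 75 named genes beside *Kit* kept their sign under every alternative, as did *Kit*, at 3.15 to 3.64 with 1 library left out.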

Other observations

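One pattern ran across all 4 sub-populations by replicate number rather than by gate. In 5 of the 12556 genes replicate 3 lay more than 1 log2 unit below both other replicates in each sub-population, and in 5 others it lay as far above them, whereas replicate 1 had 1 such gene below and replicate 2 none. *Igf1r*, the receptor of insulin-like growth factor 1, was at 863, 824 and 398 CPM in P9, at 709, 681 and 77.3 CPM in P10, at 436, 425 and 99.2 CPM in P11 and at 434, 359 and 18.4 CPM in P12. *Igf2bp3*, a fetal RNA-binding protein gene, was at 47.3, 44.1 and 7.57 CPM in P11 and at 38.3, 39.7 and 2.70 CPM in P12. *Nos1*, a nitric oxide synthase gene, was at 20.2, 23.6 and 0.348 CPM in P11 and at 26.3, 17.1 and 0.637 CPM in P12. The others below were *Pkn3* and *Pde7a*. Above were *Ifit1*, an interferon-induced gene at 1.38, 1.41 and 4.23 CPM in P11 and at 0.957, 1.13 and 7.47 CPM in P12, and *Scn2b*, a sodium channel subunit gene at 2.93, 2.20 and 19.4 CPM in P11 and at 2.31, 2.76 and 20.8 CPM in P12, with *Gm4149*, *Gm10443* and *Gm5616*. The sample descriptions name the libraries of replicates 1 and 2 by digits and those of replicate 3 by letters, and what this marks is not stated. These genes were picked from the same libraries, so no test was made, and the part of this pattern in the spread of P11 and P12 was not tested.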
